A study of Arabidopsis thaliana with 24 samples.

Results

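Leaves of the Arabidopsis thaliana line acx1-2, called ACX in the labels, were compared at 72 h and at 1 h after spraying with the herbicide 2,4-D. The 3 arrays titled for ACX at 72 h and the 3 titled for ACX at 1 h were taken by their titles, 6 of the 24 arrays in the series. The line is in the Col-0 background and carries an insertion from the SALK collection in ACX1. It is 1 line, with no second allele among these samples. Plants of both groups were grown in soil in long days and sprayed with 23 mM 2,4-D dissolved in 1% DMSO and 1% ethanol. Each array stands for leaves pooled from at least 5 plants, and the labels describe the 3 replicates of a group as independent. The labels match leaves for size and stage but give no plant age in days. The WT arrays at the same hours, 3 and 3 from Col-0 plants treated alike, served to test whether a change differed between genotypes. The labels also name solvent-sprayed control plants, but no control was set against each hour here, so time under the herbicide cannot be told apart from leaf ageing or the hour of sampling. Arrays titled 0 h, 6 for each genotype, entered the estimate of spread. Whether they hold the solvent controls is not stated, and their levels in ACX are given beside some genes as a description.

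The compound 2,4-D is a synthetic auxin. Auxin binds TIR1/AFB receptors, which leads to the breakdown of Aux/IAA repressors and frees ARF transcription factors to act on early targets such as Aux/IAA, GH3 and SAUR genes, and at herbicidal doses ethylene and abscisic acid production, closed stomata, oxidative stress, leaf curling and senescence follow. ACX1 encodes a peroxisomal acyl-CoA oxidase, the enzyme that opens each round of fatty acid beta-oxidation. It releases hydrogen peroxide and takes part in the making of jasmonate.

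Levels are the deposited log2 values, so a difference of 1 is a 2-fold change, and differences are given as the 72 h mean minus the 1 h mean. Arrays of a group correlated at r between 0.981 and 0.991 at 1 h and between 0.991 and 0.994 at 72 h across probe sets, against 0.895 to 0.916 between a 1 h and a 72 h array. The first principal component of the 6 arrays held 87.0% of the variance and parted the hours. The second held 6.46% and spread the 1 h arrays from 32.0 for replicate 1 through -2.62 for replicate 2 to -31.3 for replicate 3. On the GAPDH control probe sets, the log2 level at the 3′ end exceeded that at the 5′ end by 1.33, 0.69 and 0.29 on these same 3 arrays, and by 0.51 to 0.88 at 72 h. Replicate 1 also had the highest of the 3 levels for 39.4% of all probe sets and replicate 3 for 32.1%. The leaf marker RCA, encoding Rubisco activase, lay between 14.12 and 14.41 on all 6 arrays, near the top of the scale. The meristem marker CLV3 lay between 4.05 and 4.28. No probe set is named for ACX1 in the annotation used, so its own level was not analysed here. The 0 h arrays that entered the estimate of spread were less even. Their GAPDH difference was 1.64 to 2.39 on WT replicates 1 to 3 and 0.70 to 0.96 on WT replicates 4 to 6. In ACX at 0 h it was 0.69 to 1.26. The lowest r within a 0 h group was 0.975 in WT and 0.974 in ACX.

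The leaf transcriptome changed widely between the hours. Of 22746 probe sets, 10509 passed an adjusted p of 0.05 (46.2%), with 5374 higher (23.6%) and 5135 lower (22.6%) at 72 h by limma with Benjamini-Hochberg adjustment. With a change of at least 2-fold as well, 3847 passed (16.9%), 2206 higher (9.70%) and 1641 lower (7.21%). The 3 arrays of each hour did not overlap for 61.1% of probe sets, 28.5% with 72 h above and 32.7% with 72 h below. With each array centred on its median, 4199 were higher and 9218 lower, since the centring took the middle of all changes from -0.04 to -0.22. The directions given below are those of the deposited scale. Counted with 1 probe set for each of 13286 genes, 43.2% passed, 21.4% higher and 21.7% lower, and the median change was -0.05. These shares are the background for every gene list described here. The lists and the genes were chosen with earlier results of these data known, and a list's count is therefore a description.

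Genes of dehydration and abscisic acid response had the largest increases among genes with a symbol. All 7 measured members of a list of 32 were higher at 72 h, with a median log2 change of 2.31. LEA4-5 (AT5G06760), a late embryogenesis abundant protein that shields other proteins during drying, read 5.67, 5.90 and 5.52 at 1 h and 12.83, 12.30 and 12.99 at 72 h. HIS1-3 (AT2G18050), a linker histone induced by drought, read 4.48, 4.23 and 5.20 at 1 h and 11.38, 11.11 and 11.32 at 72 h. The groups lay far apart for both genes, with every 72 h array more than 5 units above every 1 h array. LEA4-5 was 129-fold higher (log2 change 7.01, SE 0.36, adjusted p = 1.02e-12) and HIS1-3 99.3-fold higher (6.63, SE 0.21, adjusted p = 7.79e-16). On the 0 h arrays LEA4-5 lay between 4.93 and 6.05 and HIS1-3 between 4.11 and 4.80, the low range of the 1 h arrays.

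Further members of this group changed less. LTI30, a dehydrin, differed among its replicates, with 6.93, 8.06 and 9.06 at 1 h against 11.19, 10.08 and 11.48 at 72 h (2.90, SE 0.56, adjusted p = 0.000195). COR15A, a plastid protein that stabilises membranes in the cold, rose by 2.31 (SE 0.41) and the dehydrin COR47 by 1.74 (SE 0.35). ALDH7B4, an aldehyde dehydrogenase of turgor-responsive type, rose by 2.04 (SE 0.21). COR15B passed in the full set (0.86, SE 0.33, adjusted p = 0.0404) but not without any 1 of 5 arrays, namely the 3 at 1 h and replicates 1 and 3 at 72 h, where its change was 0.55 to 0.93, nor with centring or quantile normalization (0.69 and 0.68). LEA18, outside the list, went from 3.97, 4.11 and 4.18 to 8.73, 7.95 and 9.47 (4.63, SE 0.34, adjusted p = 3.6e-10). WT gave changes of 5.23 for LEA4-5, 6.74 for HIS1-3 and 2.99 for LEA18, and no difference between genotypes passed for these 3 genes (adjusted p = 0.147, 1.00 and 0.171).

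**Figure D1:**
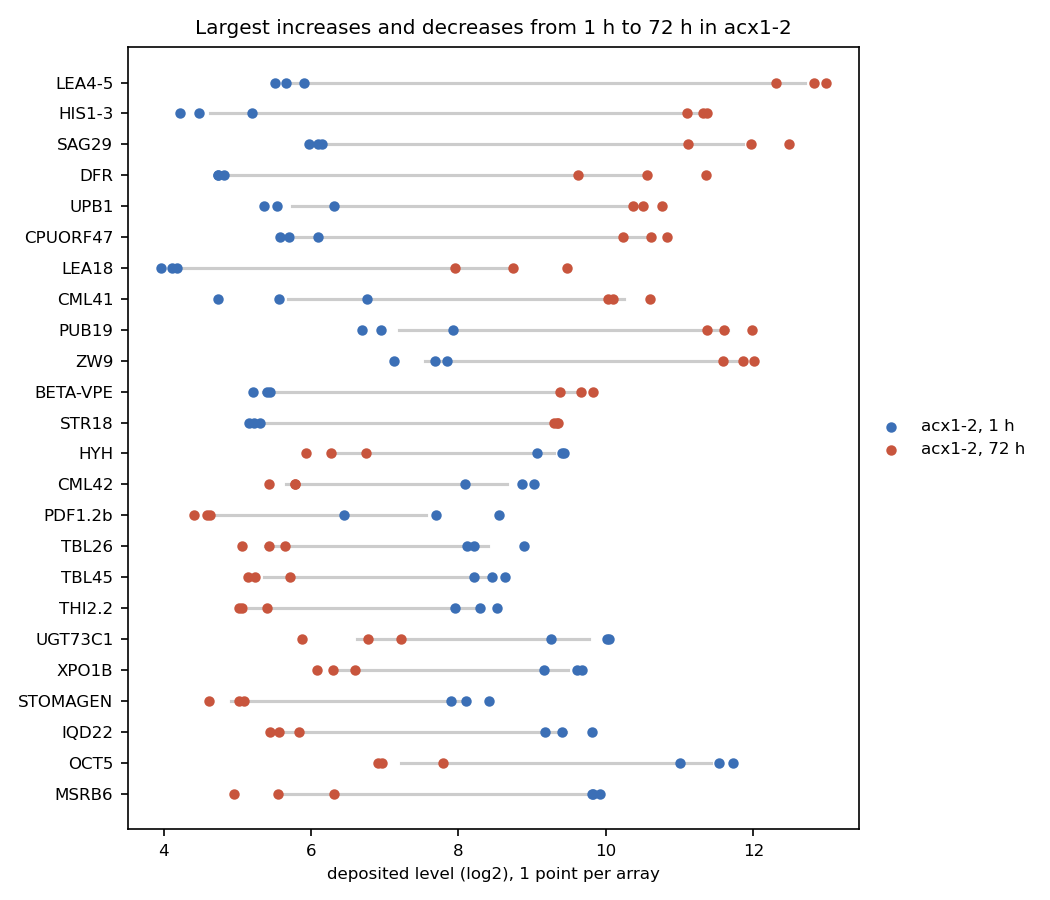
Deposited log2 level (horizontal axis) of the 12 genes with the largest increase and the 12 with the largest decrease among called genes with a symbol and groups that do not overlap. Each point is 1 array of ACX, blue at 1 h and red at 72 h, and a grey line joins the group means; LEA4-5 stands at the top with 5.52 to 5.90 against 12.30 to 12.99.

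Outside the dehydration list, SAG29 (AT5G13170), a sugar transporter of the SWEET family induced in ageing leaves, read 6.14, 6.10 and 5.97 at 1 h and 11.12, 11.97 and 12.48 at 72 h, 55.3 times its 1 h level (log2 difference 5.79, SE 0.45, adjusted p = 6.08e-10). BETA-VPE and GAMMA-VPE encode vacuolar processing enzymes, cysteine proteases that mature vacuolar proteins, and both rose. BETA-VPE went from 5.44, 5.41 and 5.21 to 9.66, 9.37 and 9.82 (19.2-fold) and GAMMA-VPE from 8.83, 9.01 and 9.21 to 13.27, 12.84 and 12.85 (15.7-fold). Both were taken by a rule that required groups without overlap, and the replicates of each lay close together at both hours.

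UPB1 (AT2G47270), a bHLH factor known from roots for control of peroxidase genes, read 5.36, 5.54 and 6.31 at 1 h and 10.76, 10.50 and 10.37 at 72 h (log2 change 4.81, SE 0.23, adjusted p = 4.18e-13). PUB19, a U-box ubiquitin ligase of drought signalling, rose by 4.46 with a wide error (SE 0.82, adjusted p = 0.000124). CML41, a calmodulin-like protein, spread from 4.73 to 6.76 at 1 h but lay at 10.02 to 10.60 at 72 h (4.55, SE 0.44, adjusted p = 2.42e-08). STR18, a sulfurtransferase, had the tightest groups of these, 5.16 to 5.31 and then 9.30 to 9.35 (4.09, SE 0.16, adjusted p = 1.75e-14). CPUORF47 (4.76), ZW9 (4.27), SIS (3.60), the cytochrome P450 gene CYP71B26 (3.59) and GH9C2 (3.57), an endoglucanase of glycosyl hydrolase family 9, rose as well, with adjusted p at or below 7.36e-09 for each. In the senescence list only 4 of 23 genes were measured. SAG29 and SAG101 were higher, SAG101 (0.77) not when any 1 of the 6 arrays was left out (0.72 to 0.85), nor with centring or quantile normalization (0.60 and 0.76). The factors WRKY53 and WRKY6 both had a change of 0.71 that did not pass (adjusted p = 0.206 and 0.222).

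The largest changes over all annotation belonged to probe sets with no symbol. AT3G02480 went from 4.61, 4.80 and 4.92 to 12.06, 11.56 and 13.07, and AT3G13672 from 4.33, 4.27 and 4.14 to 11.35, 11.08 and 11.58. On the falling side AT2G10940 went from 12.05, 12.02 and 11.82 to 5.80, 5.63 and 5.05, and AT3G05730 from 11.09, 11.34 and 11.34 to 5.32, 4.74 and 4.58. The groups were more than 5 units apart for each of these 4 genes, which were chosen after their values were seen. WT changed in the same direction, by 5.05 for AT3G02480 and -4.74 for AT3G05730. The limma difference between genotypes passed for both (adjusted p = 0.0411 and 0.0423), and neither difference was followed through the alternative fits. It did not pass for AT3G13672 (adjusted p = 0.187) or AT2G10940 (adjusted p = 0.891). A probe set with no gene listed rose most of all, from 4.24, 4.59 and 4.26 to 13.15, 13.29 and 13.66.

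Autophagy genes shifted upward as a group. Autophagy delivers cytoplasm and organelles to the vacuole for breakdown, and ATG8 proteins coat the growing autophagosome. Of 12 measured members, 10 were higher and none was lower at 72 h, with a median of 1.03. The count stayed at 9 or 10 when each ACX array was left out in turn; ATG8D (0.91, SE 0.33) lost its call without replicate 1 or 2 at 1 h or replicate 1 at 72 h, at 0.55 to 0.88, and with centring or quantile normalization (0.74 and 0.76). ATG8G read 6.12, 6.37 and 6.51 at 1 h and 8.59, 8.22 and 8.44 at 72 h, a 4.25-fold increase (2.09, SE 0.17, adjusted p = 9.6e-10). ATG8B went from 6.89, 7.10 and 8.53 to 9.67, 9.37 and 9.55, with replicate 3 well above the other 1 h arrays (2.02, SE 0.29). APG8A (1.88) and ATG3 (1.28), the enzyme that joins ATG8 to its lipid, rose too. ATG8H had 8.50, 9.14 and 9.85 at 1 h and 8.79, 8.21 and 8.62 at 72 h, overlapping groups and a change of -0.62 that did not pass (adjusted p = 0.0792), though it passed as lower with centring or quantile normalization (-0.80 and -0.73). At 1 h, 11 of the 12 members were highest on replicate 3, the array with the smallest GAPDH difference.

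Among auxin genes, some were already high at 1 h and others rose between 1 h and 72 h. GH3.3 (AT2G23170), which encodes an enzyme that ties auxin to amino acids and is an early auxin target, read 13.18, 13.50 and 13.61 at 1 h and 14.03, 14.14 and 13.72 at 72 h. Its groups did not overlap, yet the change of 0.54 (SE 0.35) did not pass (adjusted p = 0.215; 0.0270 with only the ACX arrays of both hours fitted), and both lay far above the 4.63 to 6.69 of the 0 h arrays. Among the related conjugating enzymes, GH3.17 went from 4.76, 4.83 and 4.77 to 8.00, 8.02 and 7.93 (3.20, SE 0.10, adjusted p = 1.25e-15). GH3.1 went from 5.78, 5.82 and 5.10 to 8.04, 9.20 and 8.26 (2.93, SE 0.25, adjusted p = 2.43e-09). These 2 genes were low at 1 h and 9.17-fold and 7.64-fold higher at 72 h. WES1, another GH3 enzyme, rose from 9.73 ± 0.13 to 11.03 ± 0.29 (SD, n = 3 arrays at each hour, adjusted p = 1.18e-05). IAGLU, a glucosyltransferase acting on auxin, fell by 2.08 (SE 0.25, adjusted p = 6.54e-07). Of 7 measured genes of auxin conjugation and oxidation, 3 were thus higher and 1 lower, against 3 and 3 in WT. The oxidation genes AT1G14130 (-0.45, adjusted p = 0.219) and AT1G14120 did not pass. AT1G14130 passed as lower without replicate 1 at 72 h (-0.91). AT1G14120 passed as lower with centring (-0.45) and with only the ACX arrays of both hours fitted (-0.28).

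Of 7 measured Aux/IAA repressors of a family of 27 listed, 1 was higher and 1 lower, below the background share. IAA29 read 10.88, 10.50 and 10.57 at 1 h and 9.96, 10.85 and 9.69 at 72 h, overlapping (-0.48, SE 0.42, adjusted p = 0.369), and both hours lay above the 5.66 to 6.95 of the 0 h arrays. IAA20, which lacks the degron that auxin receptors bind, rose by 0.97 (SE 0.10, adjusted p = 6.48e-08). IAA33 was lower by 0.32 in the full set and not without replicate 2 at 1 h or any 1 array at 72 h, where its change was -0.19 to -0.35, nor with quantile normalization (-0.21). The lateral organ boundaries factors LBD16 (4.58, 4.61 and 4.46 to 5.51, 6.16 and 5.47) and LBD29 (4.28, 4.22 and 4.19 to 5.44, 5.18 and 5.60) rose by 1.16 and 1.17 (SE 0.13 and 0.12). Both work downstream of ARF factors in lateral root founding. EIN3, the transcription factor of ethylene signalling and the only listed ethylene gene measured, rose by 0.57 (SE 0.11, adjusted p = 0.000201).

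Nuclear genes for photosynthesis were lower at 72 h. All 5 measured genes of chlorophyll synthesis fell, with a median of -1.95. CHLI2, a subunit of the magnesium chelatase, read 9.03, 8.85 and 8.70 at 1 h and 6.35, 6.80 and 6.16 at 72 h, 5.35-fold lower (SE 0.15 on the log2 scale, adjusted p = 2.19e-11). PORB, the light-dependent reductase that makes chlorophyllide, read 9.01, 7.89 and 7.57 at 1 h and 5.70, 5.71 and 5.50 at 72 h. It was 5.73-fold lower with a larger error (SE 0.34, adjusted p = 2.87e-06). GSA1 fell by 1.95, CHLM by 1.86 and HEMB1 by 1.70, with SE of 0.09 to 0.15. The groups did not overlap for any of the 5, and all 5 passed without each ACX array in turn. All 5 were highest on replicate 1 of the 1 h arrays and 4 were lowest on replicate 3, the order of the GAPDH differences. The part of RNA quality in these values was not tested.

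All 7 measured genes of light harvesting and the photosystems were lower as well, by less (median -0.82), with 6 of 7 highest on replicate 1 at 1 h. All 7 passed without each ACX array in turn. PSBY, a small photosystem II protein, went from 13.47, 13.25 and 13.47 to 12.13, 12.22 and 11.78 (-1.35, SE 0.11), and LHCB4.1, an antenna protein, from 13.62, 13.54 and 13.49 to 12.73, 12.79 and 12.50 (-0.88, SE 0.10). PSAN (-1.01), the ATP synthase subunit gene ATPC1 (-0.82), PSAE-1 (-0.79), LHCB4.2 (-0.46) and PSBW (-0.45) made up the rest. These transcripts remained high, none below 11.78 on any array. LHCB4.3, an antenna gene outside the list, fell further, from 11.39, 11.35 and 11.19 to 8.58, 8.55 and 8.44 (-2.79, SE 0.12, adjusted p = 7.85e-14). Cpn60beta2, a plastid chaperonin subunit, fell by 2.96 (SE 0.17) and HYH, a bZIP factor of light signalling, by 2.99 (SE 0.31).

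Carbon metabolism of the leaf gave a mixed picture. The Calvin cycle enzymes SBPASE (13.29, 13.36 and 13.06 to 11.75, 11.87 and 11.66) and PRK (13.25, 13.25 and 13.20 to 12.03, 12.20 and 11.96) fell by 1.47 and 1.17. RCA passed in the other direction (0.25, SE 0.07, adjusted p = 0.00376), but not with each array centred on its median (0.08, adjusted p = 0.362). The 3 measured genes of the photorespiration list fell, AT1G11860 by 2.23, AT1G80380 by 1.82 and HPR, the peroxisomal hydroxypyruvate reductase, by 0.47. The plastid ascorbate peroxidases, which remove hydrogen peroxide in the thylakoid and stroma, fell, TAPX from 10.71, 10.59 and 10.38 to 8.53, 8.59 and 8.42 (-2.05, SE 0.11) and SAPX by 1.20 (SE 0.14). GR1, a glutathione reductase, rose by 0.97 (SE 0.11). ATMDAR2 (-0.48, adjusted p = 0.177) and GR (0.31, adjusted p = 0.0501) did not pass, but ATMDAR2 did as lower with centring (-0.66) and GR as higher with quantile normalization (0.35).

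Of 69 genes of the plastid genome, 24 were lower and 4 higher at 72 h (median -0.31), and the shares differed by role. Lower genes were 7 of 15 ribosomal proteins, 5 of 10 NDH subunits, 4 of 6 ATP synthase subunits and 3 of 4 subunits of the plastid RNA polymerase. The photosystem II group of 15 had 1 lower and 2 higher. rpl16, a ribosomal protein, read 11.74, 11.18 and 10.05 at 1 h and 8.62, 9.33 and 9.37 at 72 h (-1.89, SE 0.45, adjusted p = 0.00168). ndhK, of the NDH complex of cyclic electron flow, read 10.39, 10.16 and 9.10 and then 8.04, 7.85 and 7.95 (-1.93, SE 0.41, adjusted p = 0.000547). rbcL, the large subunit of Rubisco, went the other way, from 9.83, 10.09 and 9.27 to 10.83, 11.08 and 11.25 (1.32, SE 0.30, adjusted p = 0.000929). For these 3 genes the groups did not overlap, although the 1 h arrays of rpl16 and ndhK spanned more than 1 unit.

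The plastid counts moved with the arrays used. At 1 h, 60 of the 69 genes were highest on replicate 1 and 59 were lowest on replicate 3, the order of the GAPDH differences. Without replicate 1 at 1 h, 13 plastid genes were lower in place of 24, and the range over the 6 arrays left out in turn was 13 to 30. With centring 34 were lower and 2 higher. The higher count also went from 4 to 2 without replicate 2 or 3 at either hour, where psbH (0.20 to 0.27) and petB (0.15 to 0.22) lost their calls. The calls of atpA, atpF, atpH and atpI, which encode ATP synthase subunits, were each lost without 3 to 5 of the 6 arrays left out singly, with changes that ran from -1.92 to -0.83 in those fits. With centring psbH and petB also did not pass (0.09 and 0.03). The part of RNA quality in these plastid values was not tested.

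**Figure D2:**
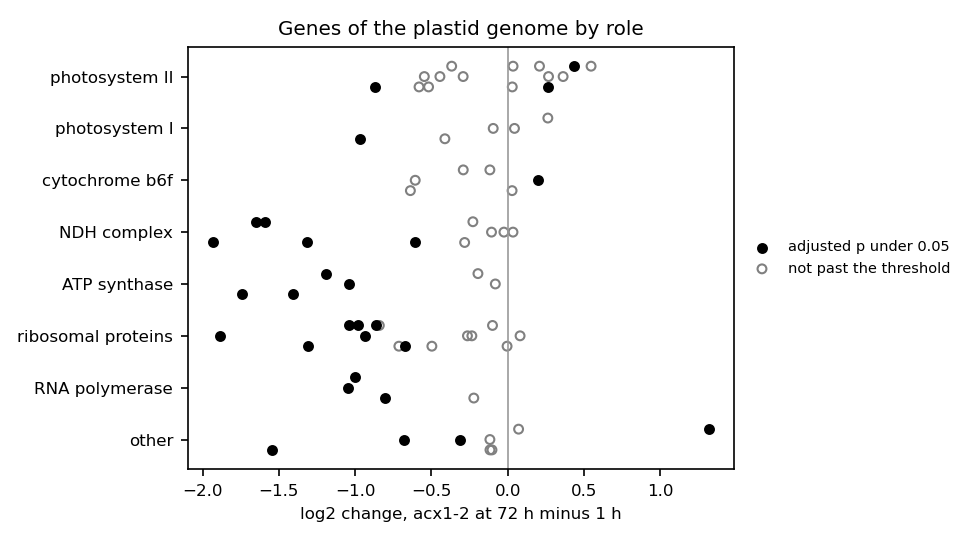
Log2 change in ACX, 72 h minus 1 h (horizontal axis), of 69 genes of the plastid genome in rows by role; filled points passed an adjusted p of 0.05 and open points did not. All filled points of the ribosomal, NDH, ATP synthase and RNA polymerase rows lie below 0, and the filled point furthest to the right is rbcL at 1.32.

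The 4 measured genes of the heat shock list all fell between 1 h and 72 h, with a median of -2.89. All 4 were highest on replicate 3 of the 1 h arrays. AT2G29500 read 9.40, 9.20 and 10.20 at 1 h and 5.90, 5.32 and 5.25 at 72 h, 17.3-fold lower (-4.11, SE 0.26, adjusted p = 3.61e-11), beside 5.73 to 6.52 on the 0 h arrays. AT1G53540 read 7.58, 7.91 and 8.46 and then 4.46, 4.51 and 4.36 (-3.54, SE 0.24, adjusted p = 7.8e-11), beside 4.26 to 4.95 at 0 h. Both genes were thus back within or below their 0 h range at 72 h. AT5G48570 fell by 2.24 and ATHSP22.0, a small heat shock protein, by 1.43.

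Genes of herbicide and xenobiotic handling came down in part. UDP-glycosyltransferases join sugars to small molecules, foreign ones included, and 7 of 12 measured were lower and 3 higher (median -0.74). UGT73C1 read 9.26, 10.04 and 10.01 at 1 h and 7.22, 5.88 and 6.78 at 72 h (-3.14, SE 0.29, adjusted p = 1.09e-08), still above the 4.14 to 4.90 of the 0 h arrays. UGT73B1 (-2.44, SE 0.22), UGT76B1 (-2.67, SE 0.47), UGT73B5 (-1.89, SE 0.37) and UGT73B4 (-1.69, SE 0.37) fell too, UGT73B4 not with only the ACX arrays of both hours fitted (adjusted p = 0.0627), while UGT85A2 rose by 1.39 (SE 0.28). UGT76B1 was uneven at 1 h, with 7.91, 9.37 and 10.68. Replicate 3 at 1 h was highest for 9 of these 12 genes and replicate 1 lowest for 10, and leaving out each array in turn gave 6 or 7 lower. OCT5, an organic cation transporter outside the UDP-glycosyltransferase list, went from 11.01, 11.54 and 11.73 to 7.80, 6.97 and 6.91 (-4.20, SE 0.37, adjusted p = 4.18e-09). The 0 h arrays lay at 6.39 to 7.62, so 2 of its 3 arrays at 72 h lay inside the 0 h range. Whether OCT5 has a part in handling the herbicide was not tested.

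Glutathione S-transferases of the tau class gave no common direction. Of 8 measured, 2 were higher and 2 lower. GSTU25 spread over 5.74, 7.65 and 9.01 at 1 h and 7.20, 5.33 and 4.59 at 72 h, with overlap (-1.76, SE 0.55, adjusted p = 0.0126). Its call was lost without replicate 3 at 1 h (-0.99, adjusted p = 0.119) or replicate 3 at 72 h (-1.20, adjusted p = 0.0999). GSTU16 (0.55) was not called without replicate 2 at 1 h (0.46), and GSTU22 (-0.36) not without replicate 2 at either hour (-0.32 and -0.25). GSTU26 rose by 0.73. AER, an alkenal reductase that clears products of lipid peroxidation, fell from 11.52, 11.95 and 12.02 to 10.19, 9.41 and 9.53 (-2.12, SE 0.17, adjusted p = 8.42e-10).

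Among 8 measured genes of oxidative signalling 4 were lower and 2 higher. The largest change on this list was the rise of UPB1 given above (4.81). MSRB6, a methionine sulfoxide reductase, had the largest fall of any gene with a symbol, from 9.81, 9.83 and 9.91 to 6.31, 4.96 and 5.56 (18.9-fold, SE 0.30 on the log2 scale, adjusted p = 1.54e-10). Its relative MSRB5 rose, from 6.15, 6.26 and 7.09 to 8.22, 7.73 and 8.25 (1.57, SE 0.36, adjusted p = 0.00118). STZ, a zinc finger repressor of stress genes, fell by 1.76 (SE 0.27) and AT2G21640 by 2.16 (SE 0.29). All 8 members were lowest on replicate 1 of the 1 h arrays, and 7 were highest on replicate 3.

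Jasmonate genes were lower at 72 h in all 5 listed cases measured, with a median of -1.88. At 1 h, 4 of these 5 were highest on replicate 3. THI2.2, a thionin, went from 8.29, 7.96 and 8.53 to 5.06, 5.02 and 5.40 (-3.09, SE 0.29, adjusted p = 1.49e-08). PDF1.2, a plant defensin used as a marker of jasmonate and ethylene signalling, was scattered at 1 h (5.07, 6.72 and 7.98) and low at 72 h (4.05, 4.11 and 4.23), a change of -2.46 (SE 0.61). PDF1.2b, a near copy outside the list whose probes may share signal with PDF1.2, fell by 3.02 (SE 0.54). ORA47, an AP2/ERF factor of jasmonate synthesis, fell by 1.88 (SE 0.48, adjusted p = 0.00277). OPCL1, a peroxisomal CoA ligase that readies jasmonate precursors for beta-oxidation, fell by 1.43 (SE 0.23) and THI2.1 by 0.83 (SE 0.14). In WT 4 of the 5 listed genes were lower as well (median -1.18), and no difference between genotypes passed for them.

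For the pathway that the insertion affects, 3 of 29 genes on the beta-oxidation list had a probe set. Of these 3 only AIM1 encodes an enzyme of beta-oxidation itself. AIM1, the multifunctional enzyme that follows acyl-CoA oxidase, rose from 9.13, 9.17 and 9.40 to 10.58, 10.51 and 10.78 (1.39, SE 0.11, adjusted p = 1.67e-09), with no overlap. SDP1, a lipase of oil bodies, passed in the full set (0.83, SE 0.29, adjusted p = 0.0242) but not without replicate 2 at 1 h or replicate 1 or 3 at 72 h (0.63 to 0.82), nor with centring (0.65). ICL, the isocitrate lyase of the glyoxylate cycle, lay between 4.82 and 5.22 at both hours. In WT 2 of these 3 genes were higher as well (median 1.09, against 0.83 in ACX), and no difference between genotypes passed. Of 3 measured genes for peroxisome formation, FIS1B, which acts in organelle fission, rose by 0.52 (SE 0.16) and PEX4, a ubiquitin-conjugating enzyme of receptor recycling, by 0.42 (SE 0.13, lost without replicate 1 at 1 h or replicate 1 or 3 at 72 h, at 0.33 to 0.37, and with centring, at 0.25). BIGYIN did not pass (-0.17, adjusted p = 0.529). In WT 1 of these 3 genes was higher, and no difference between genotypes passed.

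Genes of the stomatal lineage and of guard cells fell. The 4 measured of 9 listed were all lower, with a median of -1.85, and their summed level on the linear scale went from 1689 to 2148 at 1 h to between 147 and 178 at 72 h. Most of the sum at 1 h came from 1 gene, AT1G22690. AT1G22690, listed by its locus code as a guard cell gene, went from 10.27, 10.44 and 10.81 to 5.69, 5.90 and 4.93, 31.9-fold lower (SE 0.37 on the log2 scale, adjusted p = 3.05e-10). STOMAGEN (AT4G12970), a peptide from the mesophyll that promotes stomata, went from 8.42, 8.11 and 7.90 to 5.03, 5.09 and 4.61 (-3.23, SE 0.39, adjusted p = 4.57e-07), against 8.73 to 10.18 at 0 h. In whole leaves, fewer cells of a type and less RNA per cell cannot be told apart. The lineage factors FMA (-0.46) and SPCH (-0.39) changed less. SPCH was not called without replicate 2 at 1 h (-0.33) or replicate 1 at 72 h (-0.29). FMA was not called without replicate 2 at 1 h (-0.40) or without replicate 1 (-0.45) or 2 (-0.41) at 72 h. Of the trichome genes, TRY fell by 2.16 (SE 0.40) and GIS rose by 0.75 (SE 0.23; 0.60, adjusted p = 0.0678, without replicate 3 at 72 h, and 0.57 with quantile normalization, adjusted p = 0.0547). The summed level of these 2 was 165 to 207 at 1 h and 117 to 149 at 72 h.

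Among 9 actin and tubulin genes 7 were lower and none was higher (5 to 7 lower when each array was left out in turn, 5 without replicate 3 at 72 h). ACT11 fell from 7.20, 7.19 and 7.05 to 4.34, 4.66 and 4.55 (-2.63, SE 0.18, adjusted p = 8.49e-11) and TUB5 by 1.15 (SE 0.22). Expansins, which loosen walls, gave 3 higher and 2 lower of 10 measured from a list of 16, not far from the background. The EXPA genes grouped by symbol, not all of them on that list, leaned lower. Of 10 such genes 2 were higher and 5 lower (median -0.39). EXPB3 rose by 2.20 and EXPA4 by 1.33, whereas EXPA8 fell by 1.90 and EXLA2 by 1.33. With centring the expansin list had 2 higher and 4 lower, as EXLB1 (1.27 and then 1.10) no longer passed and EXLA1 (-1.23) and EXPB1 (-0.94) did. EXLB1 also lost its call without replicate 1 or 2 at 1 h or replicate 2 or 3 at 72 h (1.01 to 1.30), and EXPB1 also passed with array weights and with only the ACX arrays of both hours fitted (-0.76 and -0.77). Among 8 xyloglucan endotransglucosylases, XTH20 rose from 4.50, 4.49 and 4.33 to 6.81, 7.87 and 7.31 (2.89, SE 0.35, adjusted p = 5.69e-07), XTH18 fell by 1.72 (SE 0.34), and 6 did not pass. With centring 4 were lower, XTH16 (-1.28), XTH33 (-0.79) and XTH21 (-0.29) being added. XTH16 and XTH33 also passed with array weights (-1.02 and -0.72) and with only the ACX arrays of both hours fitted (-1.11 and -0.62). TBL45 and TBL26 fell by 3.07 and 3.02, in a family that acetylates wall polysaccharides and had 6 of 22 genes higher and 6 lower, up to 2.18 higher.

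The 3 measured glucosinolate genes rose. GTR2, a transporter of these defence compounds, went from 7.46, 7.81 and 7.96 to 9.70, 9.44 and 9.26 (1.72, SE 0.19), BCAT4, an aminotransferase of methionine chain elongation, by 1.80 and GTR1 by 1.09. Of the clock genes, CCL rose from 11.01, 10.56 and 11.40 to 13.30, 13.45 and 13.29 (2.36, SE 0.26) and GI did not pass (0.77, adjusted p = 0.0899), although its groups did not overlap and it passed with array weights (0.73, adjusted p = 0.00956) and with only the ACX arrays of both hours fitted (0.77, adjusted p = 0.00254).

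Small lists of other processes completed the set. Of 4 early stress regulators 1 was higher and 2 were lower, and the largest change was the rise of CML41 given above. Of the U-box ligases on that list, PUB22 fell from 6.52, 6.98 and 7.01 to 4.92, 4.56 and 4.65 (-2.13, SE 0.30) and PUB23 by 1.14 (SE 0.32), while PUB24 did not pass (-0.54, adjusted p = 0.376). ARR15, a response regulator of cytokinin signalling, fell by 1.26 (SE 0.36), and RR16 did not pass (0.04, adjusted p = 0.925). PRL, a subunit of the helicase that licenses DNA replication, fell by 1.22 (SE 0.18). The mitotic kinase AUR1 was higher by 0.51, but not called without replicate 3 at 1 h (0.39) or replicate 2 at 72 h (0.38), nor with centring or quantile normalization (both 0.33). Of 3 genes for protein folding in the endoplasmic reticulum, the co-chaperone ATERDJ3B rose by 0.71 (SE 0.15). The calreticulin CRT1b was higher by 0.65 and not called without replicate 1 at 1 h (0.57) or replicate 2 at 72 h (0.34), nor with centring (0.48). The transcription factor BZIP60 was lower (-0.67, adjusted p = 0.0495) and passed among the fits without 1 array only without replicate 1 at 1 h (elsewhere -0.73 to -0.49). The root hair gene EXPA7 lay between 4.84 and 4.92 at 1 h and 4.28 and 4.30 at 72 h, low at both hours.

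**Figure D3:**
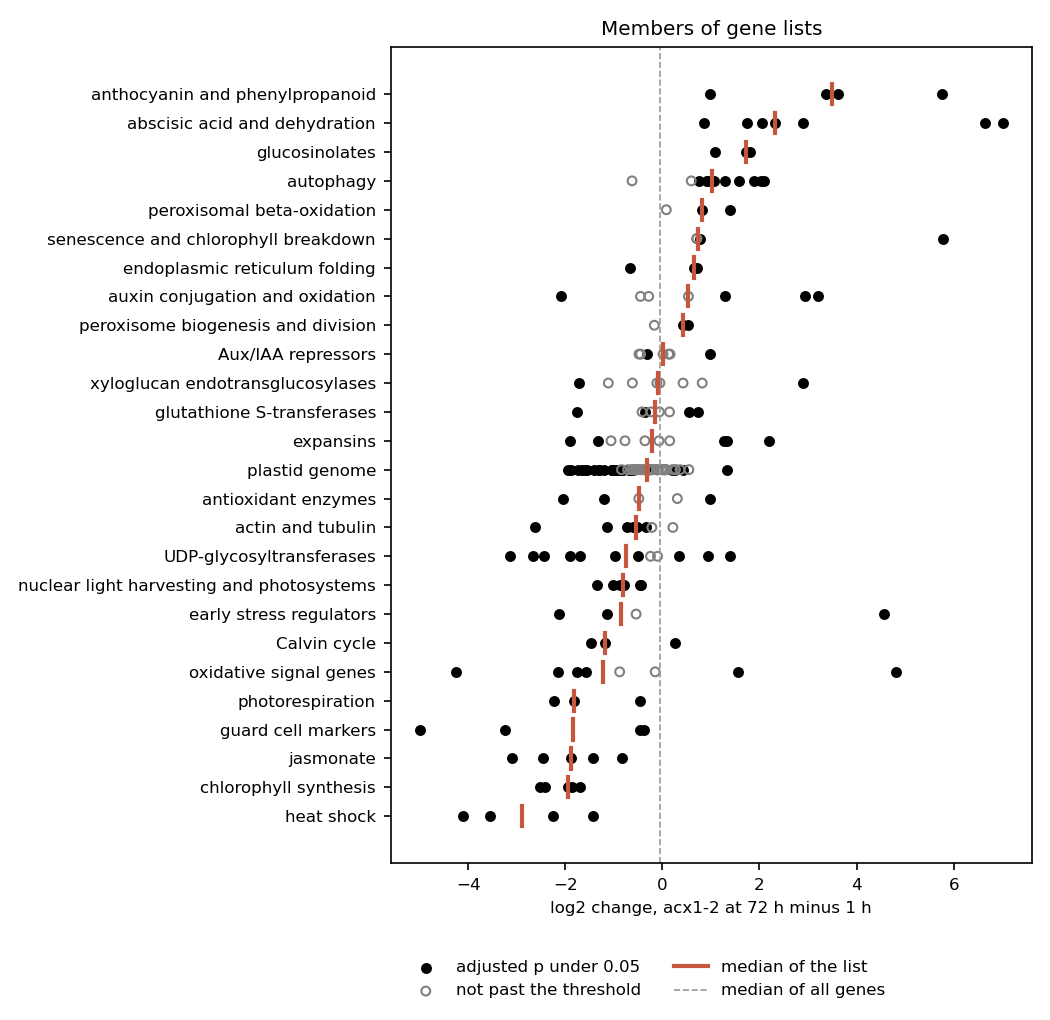
Log2 change in ACX, 72 h minus 1 h (horizontal axis), for the 26 lists with 3 or more measured members, ordered by their median. Each point is a gene, filled where the adjusted p was under 0.05, a red bar marks the list's median and the dashed line the median of all genes at -0.05; the medians run from 3.49 for the anthocyanin list to -2.89 for heat shock.

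The same interval in WT showed how much of this was shared. WT had 11293 probe sets called between the hours (49.6%), 5736 higher (25.2%) and 5557 lower (24.4%). With at least 2-fold, 18.3% passed in WT, 10.8% higher and 7.55% lower. With 1 probe set per gene, 46.6% passed, 22.7% higher and 23.9% lower. Of the probe sets higher in ACX, 4559 were also higher in WT, which is 84.8% of those in ACX and 79.5% of those in WT. Of the lower ones, 4004 were shared (78.0% and 72.1%), and 7 and 9 went in opposite directions. The change itself differed between genotypes for 91 of 22746 probe sets (0.400%), 54 with the higher value in ACX (0.237%) and 37 with the lower (0.163%), and 2063 differed at an unadjusted p under 0.05. Of the 91, 48 changed in both genotypes in the same direction, 24 only passed in ACX, 12 only in WT and 7 passed in opposite directions. This count moved with the arrays used. It was 27 without WT 1 h replicate 1, 42 without WT 1 h replicate 2, 49, 44 and 270 without WT 72 h replicates 1, 2 and 3, 38 without ACX 1 h replicate 3, and 155 and 29 without ACX 72 h replicates 2 and 3. Fitted to the 12 arrays of these groups alone it was 19, with 6 higher and 13 lower in ACX, so the balance of directions turned. With the lowest 50% of probe sets left out it was 23 higher and 24 lower.

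**Figure D4:**
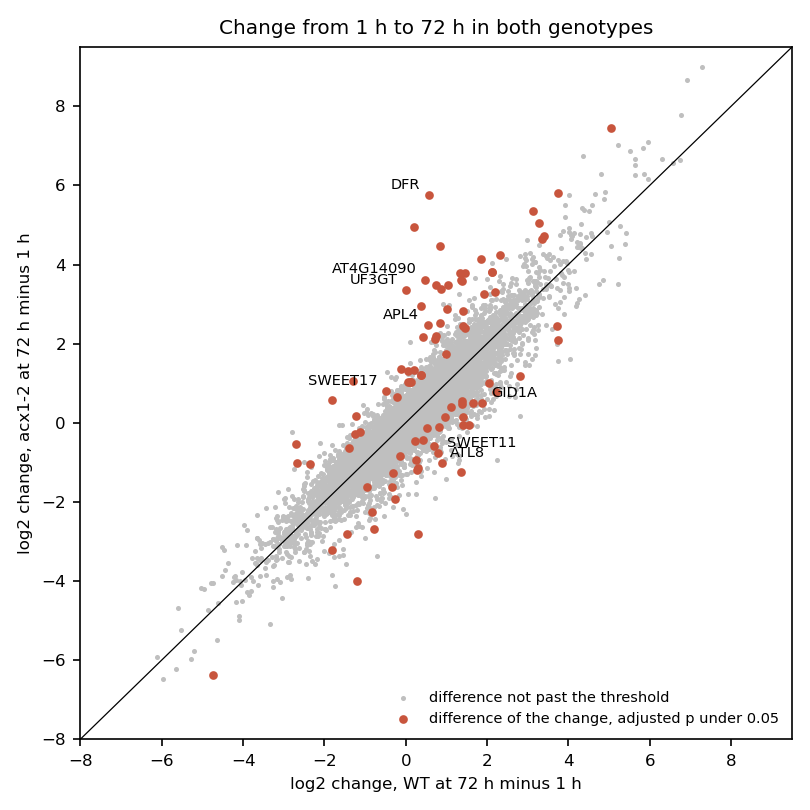
Log2 change from 1 h to 72 h in WT (horizontal axis) and in ACX (vertical axis) for 22746 probe sets; the line marks equal change. Red points are the 91 whose change differed between genotypes at an adjusted p under 0.05, with DFR at 5.75 in ACX against 0.56 in WT.

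Anthocyanin genes rose in ACX, and the rise differed from WT for 3 of the 4 measured. DFR (AT5G42800), dihydroflavonol reductase, which turns dihydroflavonols into leucoanthocyanidins on the way to anthocyanins, read 4.73, 4.74 and 4.82 in ACX at 1 h and 11.36, 9.62 and 10.56 at 72 h. WT read 5.27, 4.88 and 4.75 and then 4.65, 5.09 and 6.84. Every ACX array at 72 h thus lay above every other array, and replicate 3 was the highest WT array at 72 h. The ACX change was 53.7-fold (log2 change 5.75, SE 0.66, adjusted p = 2.83e-07), that of WT did not pass (0.56, adjusted p = 0.499), and the difference was 5.19 (SE 0.94, adjusted p = 0.0147). The 0 h arrays lay between 4.63 and 6.07 in ACX and between 4.83 and 8.11 in WT, with medians of 4.84 and 5.11, so the highest WT array at 0 h was above all WT arrays at 72 h.

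UF3GT (AT5G54060), a glycosyltransferase that adds xylose to anthocyanins, read 5.80, 5.53 and 5.49 in ACX at 1 h and 9.46, 7.82 and 9.63 at 72 h, against 5.96, 5.80 and 5.95 and then 5.29, 5.93 and 6.54 in WT. The difference of the change was 3.35 (SE 0.48, adjusted p = 0.0022). AT4G14090, placed in this list by its locus code, read 5.35, 5.21 and 5.16 and then 9.90, 7.72 and 8.95 in ACX, against 5.39, 5.61 and 5.32 and then 5.47, 5.55 and 6.72 in WT, a difference of 3.14 (SE 0.49, adjusted p = 0.0043). In ACX replicate 2 was the lowest of the 72 h arrays for DFR, UF3GT and AT4G14090 alike. AT5MAT, an acyltransferase that adds malonate to anthocyanins, rose in ACX by 0.99 (SE 0.19, adjusted p = 0.000187) and changed by -0.02 in WT, but the difference of 1.01 did not pass (adjusted p = 0.119). The list held 19 genes, and 4 of 4 measured were higher in ACX (median 3.49) while none of them passed in WT (median 0.24). UF3GT and AT4G14090 passed the difference without each of the 12 arrays in turn, DFR all but without WT 1 h replicate 1 (5.04, adjusted p = 0.0513). With the 12 arrays alone DFR still passed, UF3GT (adjusted p = 0.0727) and AT4G14090 (0.102) not.

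**Figure D5:**
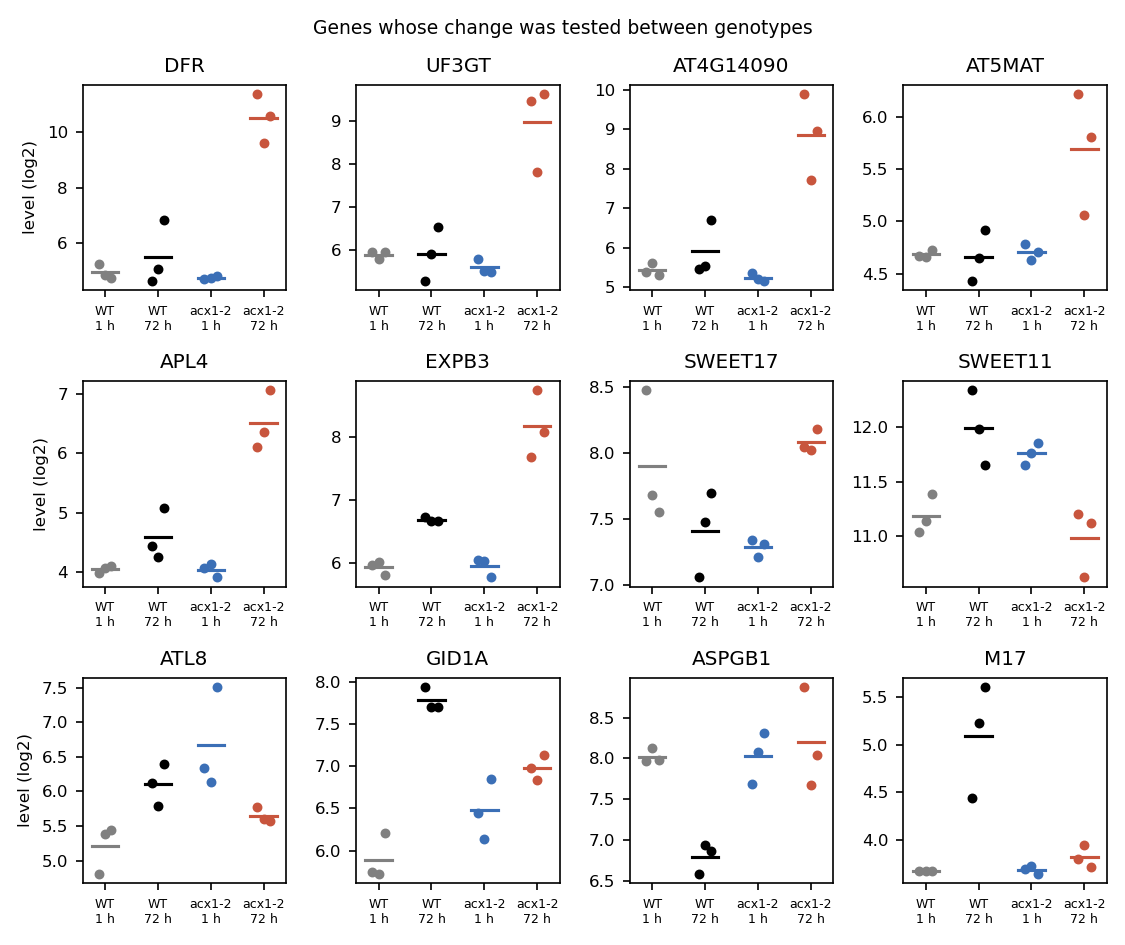
Deposited log2 level (vertical axes, scaled to each gene) of 12 genes on the 3 arrays each of WT and ACX at 1 h and 72 h; points are arrays and bars are means. For DFR, UF3GT and AT4G14090 the 3 ACX arrays at 72 h lie above all others, while WT spans 4.65 to 6.84 for DFR at 72 h.

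Of the other genes whose change differed between genotypes, 3 act on sugar or starch. They were not a fixed list, and 2 of 14 genes with a SWEET symbol had a called difference. APL4, a large subunit of ADP-glucose pyrophosphorylase, read 4.08, 4.14 and 3.91 in ACX at 1 h and 6.11, 6.35 and 7.05 at 72 h, against 3.98, 4.06 and 4.11 and then 4.43, 4.25 and 5.08 in WT. The difference of the change was 1.93 (SE 0.25, adjusted p = 0.00105). SWEET11, a sucrose exporter of the phloem, fell in ACX from 11.65, 11.77 and 11.86 to 11.20, 10.62 and 11.12 and rose in WT from 11.04, 11.14 and 11.39 to 12.34, 11.98 and 11.65, a difference of -1.58 (SE 0.27, adjusted p = 0.0094). The groups did not overlap in either genotype, and the 1 h levels of ACX were above those of WT. SWEET17, a vacuolar fructose transporter, rose by 0.79 in ACX and fell by 0.49 in WT (difference 1.28, SE 0.27, adjusted p = 0.0317). APL4 and SWEET11 passed without each of the 12 arrays in turn. SWEET17 was lost without any 1 of the 3 ACX arrays at 1 h, replicates 1 and 3 of ACX at 72 h, replicate 1 of WT at 1 h and replicates 1 and 2 of WT at 72 h, with differences of 1.00 to 1.32.

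The other genes with a symbol that differed were each lost in at least 5 of the 12 fits with 1 array left out. EXPB3 rose more in ACX (2.20 against 0.75, difference 1.45). ASPGB1, an asparaginase, fell in WT by 1.23 and not in ACX (0.17, adjusted p = 0.538). GID1A, a gibberellin receptor, rose by 1.89 in WT against 0.50 in ACX (adjusted p = 0.0508), and M17 by 1.42 in WT against 0.13 in ACX (adjusted p = 0.553). ATL8, a RING ubiquitin ligase, fell by 1.02 in ACX and rose by 0.89 in WT. ATL8 read 6.34, 6.14 and 7.51 at 1 h in ACX, and without the high replicate 3 its ACX change was -0.59 (adjusted p = 0.0553) and the difference -1.49 (adjusted p = 0.074). The calls of EXPB3, ASPGB1, GID1A, M17 and ATL8 were lost in 6, 9, 9, 5 and 6 fits, where the difference nearest 0 was 1.36, 1.06, -1.20, -1.22 and -1.49 respectively. Replicate 1 of WT at 1 h, replicate 2 of WT at 1 h and replicate 3 of ACX at 72 h were in every one of these sets. Replicates 1 and 2 of WT at 72 h were in 4 each, replicate 3 of ACX at 1 h in 4, replicate 1 of ACX at 72 h in 3, replicate 1 of ACX at 1 h in 2, and the others in 1 or none. With the 12 arrays alone, none of these 5 genes, nor APL4, SWEET11 and SWEET17, passed.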

How the data were processed

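Leaf RNA was measured on 24 Affymetrix ATH1 arrays, in 6 groups taken from the titles. The deposited values are log2 expression per probe set, which the authors made with RMA. That name and limma come per the submitters' processing notes. Their versions and settings: not given in the sources used here. RMA usually quantile-normalizes, so a shift shared by most genes would be hidden. Precision is limited by the 3 arrays per group and hour; the SE of an ACX change was typically 0.148. Array images and scanner signals were not used here.

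The 64 control probe sets among 22810 were left out. Names came from the platform annotation of 2016, updated through gene identifiers to RefSeq (assembly TAIR10.1): 13513 probe sets have 1 gene (13436 matched), 503 several and 8730 none listed, and 1579 carry a symbol. A gene's probe set with the highest mean stood for it in lists. limma 3.58.1 in R 4.3.3 fitted 1 mean per group to all 24 arrays (18 residual and 3.23 prior degrees of freedom). The contrasts were ACX 72 h minus 1 h, WT 72 h minus 1 h and their difference. Tests are two-sided, with Benjamini-Hochberg adjustment over 22746 probe sets and a threshold of 0.05. The procedure was tested on simulated data.

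The members, lists, rule for named genes and tests were chosen with earlier results of these data known. The rule took the 12 largest changes each way among called genes with a symbol and groups that do not overlap, the 6 largest among well-expressed genes, up to 6 passing and 2 other members of each list, the 8 largest differences each way, and ACX1. A subset is named. Of 41 lists (32 of processes, 9 of cell types), 5 had no measured member, for salicylic acid, phloem, xylem, epidermis and seed storage. Nothing in the labels ties equal replicate numbers to a shared batch, and no batch is given. Alternatives were scaling, filters, priors, array weights, fewer arrays, a replicate block, probe set choice and leaving out each array. Recounting the lists without each ACX array was chosen after seeing the data.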

Additional observations from a re-analysis of the deposited data

Results flagged for a closer look

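For 11 genes taken by the naming rule or from the lists, the change from 1 h to 72 h differed between ACX and WT. This was by the test of the difference itself (limma, adjusted p under 0.05). On the log2 scale, the ACX change minus the WT change was 5.19 for DFR, 3.35 for UF3GT, 3.14 for AT4G14090, 1.93 for APL4, 1.45 for EXPB3, 1.40 for ASPGB1 and 1.28 for SWEET17. It was -1.28 for M17, -1.39 for GID1A, -1.58 for SWEET11 and -1.91 for ATL8. The values on each array stand above for DFR, UF3GT, AT4G14090, APL4 and SWEET11. The difference also passed for AT3G02480 (2.40) and AT3G05730 (-1.64), which were named outside the rule and the lists. On the 0 h arrays of ACX, 14 genes were checked for an array standing apart from the other 5, and none had one. Not all of these 14 have their 0 h levels given above, and the WT arrays at 0 h were not checked.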

How the results depend on the processing

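The ACX count of 10509 was 3847 with at least 2-fold, 6939 with the lowest 50% of probe sets left out and 5688 with 1 probe set per gene, where fewer were tested. It ran from 8814 to 9915 with each array left out in turn. The WT count of 11293 was 4166, 7335 and 6175 under the same 3 choices and 9785 to 10150 with each array left out. With each array centred on its median, WT had 4316 higher and 10451 lower. The genotype difference, 91, was 69 with at least 2-fold, 47 with the lowest 50% left out, 42 with 1 probe set per gene, 529 with array weights, 19 with only the groups compared, and 27 to 270 with each array left out. The cause of the rise with array weights was not tested. Deviations of ACX arrays with the same replicate number at 1 h and 72 h correlated at -0.25, 0.01 and -0.08 (WT -0.00, -0.06 and 0.11), and only WT replicate 3 correlated best with its own number, so the numbers were not taken to pair the samples. With the replicate block, limma called 10880 probe sets in ACX, 11575 in WT and 0 for the difference, where 2437 had an unadjusted p under 0.05. No gene's ACX change and no difference turned its sign across the threshold under any alternative run. Of 258 genes, 12 ACX calls were lost with centring, 12 with quantile normalization, 12 with only the groups compared and 10 with the replicate block, UGT73B4 (adjusted p = 0.0537) and PUB23 (adjusted p = 0.0544) among the last. Of the 11 differences, 10 were lost with only the groups compared and 11 with the block. The lists held 150 called members, 158 with centring and 151 with the block.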

Other observations

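Gene families with at least 8 genes each were grouped by symbol after the data were seen, and their values in ACX are a description. The background over all genes is 21.4% higher and 21.7% lower. Of 15 IQD genes, which encode calmodulin-binding proteins along microtubules, 8 were lower and 1 higher at 72 h (median log2 change -0.45). IQD22 fell most, from 9.81, 9.18 and 9.40 to 5.56, 5.84 and 5.45 (-3.85, adjusted p = 1.92e-07), and iqd21 by 2.14. Of 8 aldehyde dehydrogenase genes, 4 were higher and none lower, ALDH7B4 by 2.04 and ALDH10A9 by 0.90. Of 26 cytochrome P450 genes, 10 were higher and 3 lower, with CYP71B26 (3.59), CYP71B28 (2.91) and CYP71B34 (2.26) above and CYP71B22 (-2.23) below. The other 13 did not pass, and the family's median was -0.00.

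Of 14 sugar transporter genes with a SWEET symbol, 4 were higher and 3 lower, near the background. Among these 14, SWEET13 (2.48) and SWEET1 (2.18) rose most and SWEET2 (-1.41) fell most. SAG29 is of the same family but carries another symbol, so this grouping left it out, and its rise given above was larger. Of 47 UDP-glycosyltransferases, 15 were higher and 16 lower, and UGT85A5 (3.19) and UGT71B1 (1.91) stood opposite UGT73C1 (-3.14). Of 12 ubiquitin-conjugating enzyme genes, 5 were higher, led by UBC32 (2.81), and 3 lower. Of 15 tetraspanin genes, 3 were higher and 3 lower (median -0.02), near the background, with TET3 (3.05) and TET2 (2.32) above and TET7 (-1.31) below.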
